A study of Arabidopsis thaliana with 12 samples.

Results

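Seeds labelled lec1-4 were set against seeds of the wild-type set Col-0-1, both taken at 9 days after pollination, to find which transcripts differ between them. The 6 libraries, 3 of each kind, are part of a series of 12 libraries of developing Arabidopsis thaliana seeds in 4 groups. The other groups are dellaq and a further wild-type set, Col-0-2. Plants of all groups grew at 22 °C in cycles of 16 h of light and 8 h of dark, and seeds were picked from the siliques with a needle. The labels give lec1-4 only by that name, call both wild-type sets Col-0 seeds, and do not say which set was grown beside lec1-4. No label says that replicates came from separate plants or harvests, and the p-values rest on library-to-library spread that could be technical. Genes with at least 1 FPKM (fragments per kilobase of transcript, scaled to library size) in at least 3 of the 6 libraries were tested, which gave 19375 of 33602 genes. A gene can pass this filter through 1 group alone.

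LEC1 (LEAFY COTYLEDON1) encodes a B subunit of the nuclear factor Y complex, a trimer of A, B and C subunits that binds the promoter sequence CCAAT. It acts in the embryo, where it is known for starting and sustaining maturation, the phase in which cotyledon cells fill with oil and storage protein and acquire tolerance of drying. It works with the B3 domain factors LEC2, FUS3 and ABI3, which bind the RY element, and with basic leucine zipper factors, which bind the G-box. Embryos that lack LEC1 are known for cotyledons with leaf traits, among them trichomes.

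Estimated depth was 13.7 M to 15.3 M fragments in the lec1-4 libraries and 14.8 M to 14.9 M in the Col-0-1 libraries. The first principal component of the 6 libraries held 70.8% of the variance and separated lec1-4 from Col-0-1. Across genes, libraries correlated at r = 0.991 to 0.992 within lec1-4, 0.989 to 0.993 within Col-0-1 and 0.960 to 0.970 between them. Plastid-encoded transcripts summed to 127 to 186 FPKM in lec1-4 and 172 to 251 FPKM in Col-0-1, and nuclear rRNA loci to 1364 to 1659 FPKM in lec1-4 and 1184 to 1640 FPKM in Col-0-1, so both ranges overlapped. The Col-0-2 libraries stood apart from these 6, with plastid-encoded sums of 4523 to 5039 FPKM and nuclear rRNA sums of 249 to 295 FPKM. So did the dellaq libraries, with sums of 7116 to 8593 FPKM and 297 to 377 FPKM. Neither group was part of the main test. Col-0-2 levels (mean ± SD, n = 3) stand beside those of most named genes, since the 2 wild-type sets also differed from each other. A result printed without these levels is one against Col-0-1 alone. The mean of both wild-type sets, used below as an alternative, joins libraries from both sides of this difference. In whole seeds, fewer cells of a type and less RNA per cell cannot be told apart.

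LEC1 (AT1G21970, TAIR10.1 chr1:7727577-7729649) was the check of the genotype label. It measured 2.63, 2.38 and 3.42 FPKM in the 3 lec1-4 libraries, against 80.8, 93.2 and 67.5 FPKM in the 3 Col-0-1 libraries. The groups did not overlap, and transcripts of the gene were still detected in every lec1-4 library. The log2 change on the log2(FPKM + 1) scale was -4.42 ± 0.13 (SE), adjusted p = 4.57e-07 by limma's moderated test with Benjamini-Hochberg adjustment over all genes tested, the test behind every adjusted p here. Col-0-2 seeds had 124 ± 1.02 FPKM.

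**Figure D1:**
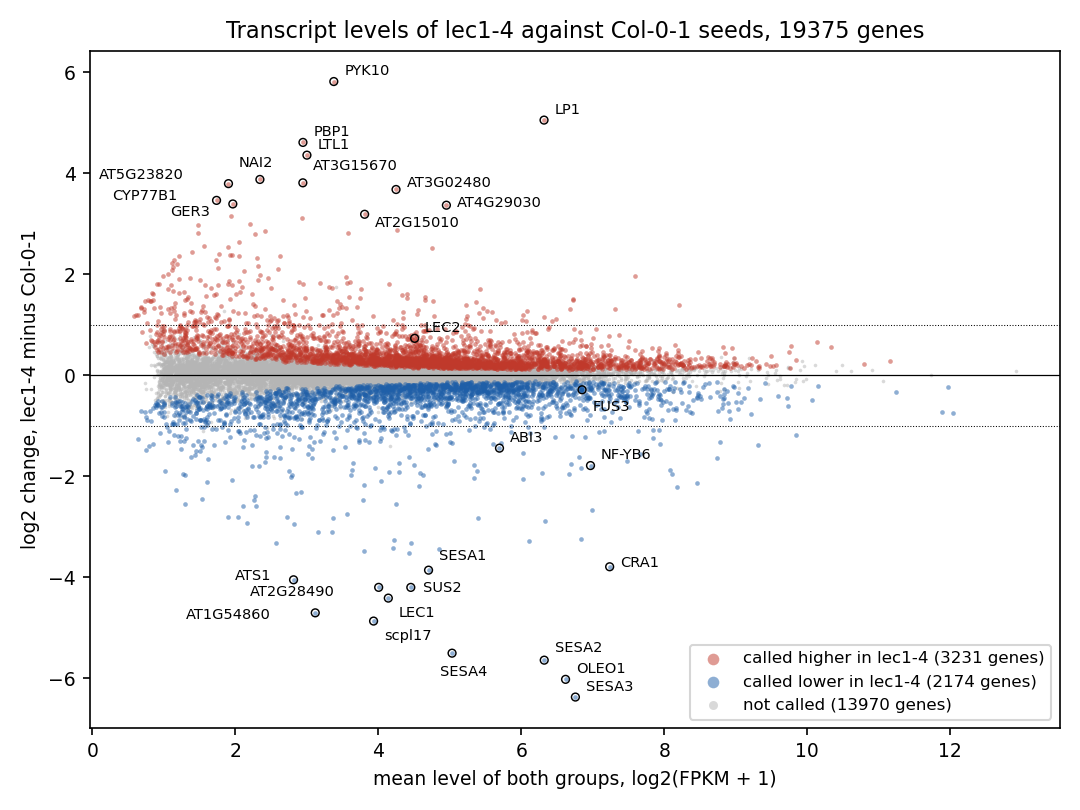
Log2 change between lec1-4 and Col-0-1 (vertical axis) against the mean level of both groups in log2(FPKM + 1) (horizontal axis) for the 19375 genes tested. Red points are the 3231 genes called higher and blue points the 2174 called lower in lec1-4. Rings mark named genes, and dotted lines a log2 change of 1 in each direction. The largest falls, near -6, are the storage gene SESA3 and the oil body gene OLEO1, and the largest rise is PYK10 at 5.82.

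At an adjusted p under 0.05, 3231 genes were higher in lec1-4 (16.7% of those tested) and 2174 were lower (11.2%), 5405 in all (27.9%). Counts of called list members below are to be read against these shares. Most changes were small. The median size of the log2 change of called genes was 0.36, and 467 genes (2.41%) were called with a log2 change of at least 1, of which 239 were higher (1.23%) and 228 lower (1.18%). An unadjusted p under 0.05 was reached by 39.3% of genes. In 8545 genes (44.1%) the 3 lec1-4 and 3 Col-0-1 libraries did not overlap. The balance of directions depended on the scaling: median-ratio scaling gave 2269 higher and 2672 lower genes, upper-quartile scaling 2460 and 2513, and removal of the trend with transcript length 2494 and 2517. The median log2 change of all genes tested was 0.05, and 5% of genes lay below -0.50 and 5% above 0.49. Without Col-0-1 replicate 1, 2116 genes were called higher.

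**Figure D2:**
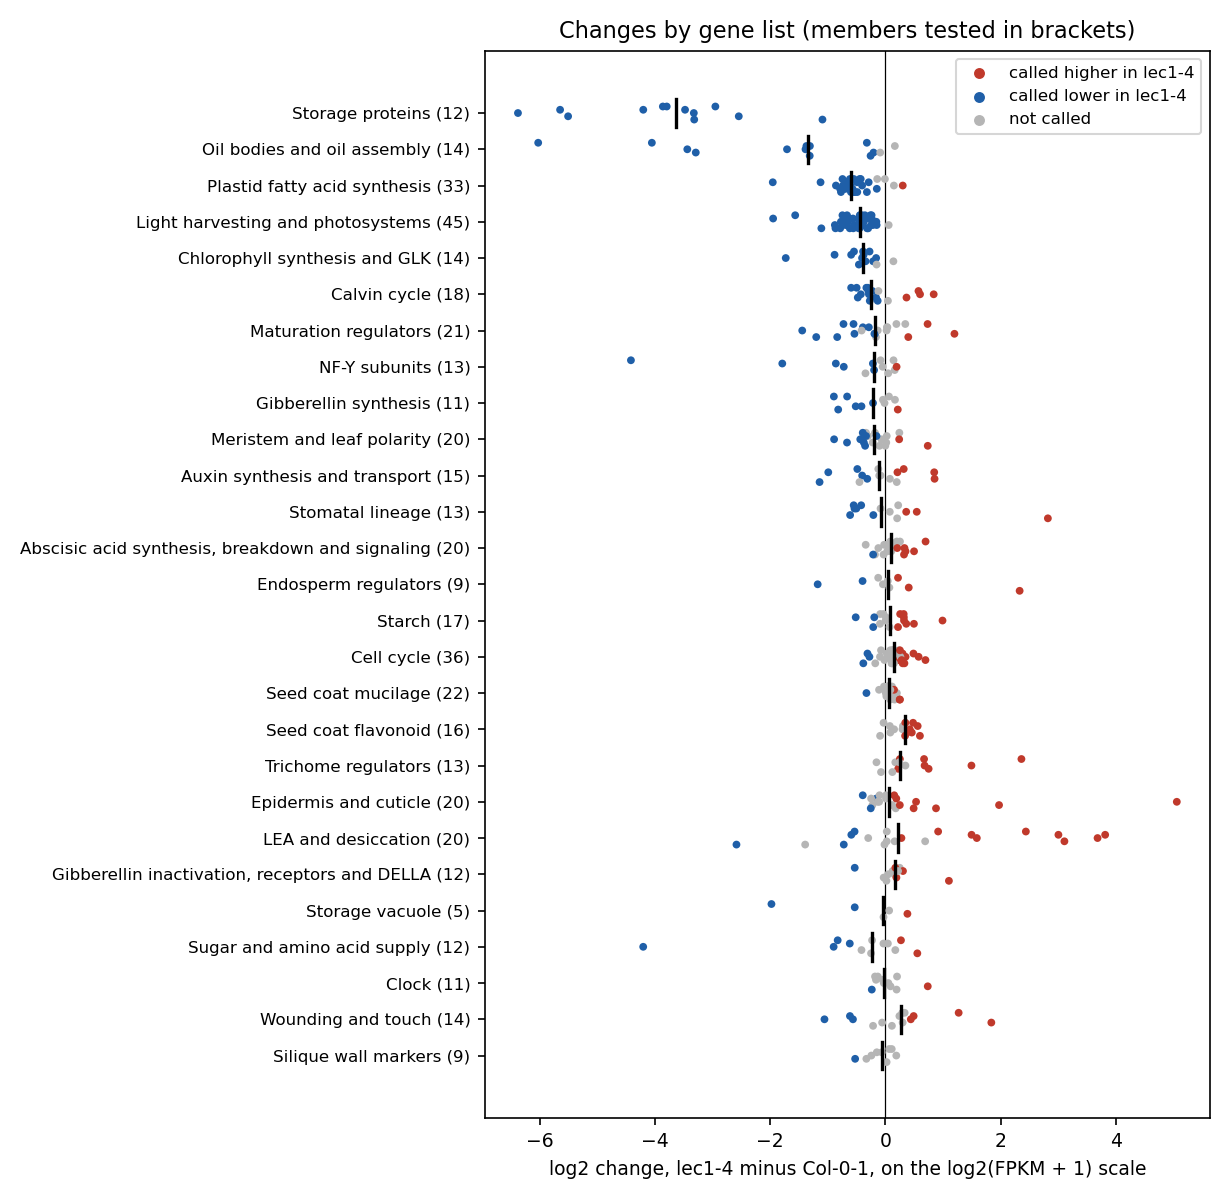
Log2 change between lec1-4 and Col-0-1 (horizontal axis) for the tested members of each gene list (rows). Each point is a gene, red where called higher and blue where called lower in lec1-4, grey where not called, and the black bar is the median of the list. Storage protein genes have the lowest median, -3.64, followed by oil body genes at -1.34, and LEA genes spread on both sides of 0.

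The subunit most like LEC1, NF-YB6 (AT5G47670, also called LEC1-LIKE), fell as well. It measured 71.8, 58 and 69.2 FPKM in lec1-4 libraries, against 224, 212 and 259 FPKM in Col-0-1 libraries, a log2 change of -1.79 ± 0.09 (SE), adjusted p = 7.74e-06. All lec1-4 values lay below the lowest Col-0-1 value by more than the spread within either group, and Col-0-2 seeds had 97.8 ± 6.9 FPKM. Of the 13 subunit genes examined, 6 were lower and 1, NF-YC3, was higher (median log2 change -0.20; median-ratio scaling, or leaving out lec1-4 replicate 1 or 2, took away the call of NF-YC3). Both of the A subunit genes called were lower. NF-YA5 averaged 14.7 ± 0.546 FPKM in lec1-4 and 27.5 ± 0.234 FPKM in Col-0-1 (SD, n = 3 each; log2 change -0.86 ± 0.05 SE, adjusted p = 1.52e-05). NF-YA9 averaged 33.6 ± 3.57 FPKM in lec1-4 and 56 ± 2.67 FPKM in Col-0-1 (log2 change -0.72 ± 0.07 SE, adjusted p = 2.41e-04), and 31.6 ± 1.77 FPKM in Col-0-2. The level of NF-YA5 in Col-0-2 was 9.96 ± 1.39 FPKM, below that of lec1-4.

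The B3 factors, which activate maturation genes beside LEC1, did not move together. ABI3 (AT3G24650) measured 31.3, 26.7 and 33.3 FPKM in lec1-4 libraries, against 83.8, 79.5 and 89.6 FPKM in Col-0-1 libraries (log2 change -1.44 ± 0.08 SE, adjusted p = 1.07e-05). The 2 ranges were far apart. LEC2 (AT1G28300) measured 28.2, 31.5 and 25.2 FPKM in lec1-4 libraries, against 17.1, 18.7 and 14.2 FPKM in Col-0-1 libraries, and thus was higher in lec1-4 (log2 change 0.73 ± 0.11 SE, adjusted p = 0.00156). FUS3 (AT3G26790) measured 111, 97.5 and 101 FPKM in lec1-4 libraries, against 126, 113 and 140.5 FPKM in Col-0-1 libraries. These values lie close to each other, with the lowest Col-0-1 library just above the highest lec1-4 library, and the log2 change was -0.29 ± 0.08 (SE), adjusted p = 0.0285. The FUS3 call was lost without lec1-4 replicate 2 (adjusted p = 0.0863) or 3 (0.0781) and without Col-0-1 replicate 1 (0.0827) or 3 (0.0651).

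ABI3 at 36.6 ± 3.16 FPKM and FUS3 at 45.3 ± 3.54 FPKM were lower in Col-0-2 seeds than in Col-0-1 seeds, and lec1-4 lay close to the Col-0-2 level for ABI3 and above it for FUS3. Against the mean of both sets, an alternative chosen after seeing the data, FUS3 was higher in lec1-4 (log2 change 0.44, adjusted p = 2.86e-04). LEC2 in Col-0-2 was 14.1 ± 1.31 FPKM, so lec1-4 was above both sets.

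Of 21 maturation regulators tested, 10 were lower and 3 higher in lec1-4 (median log2 change -0.18, against 0.05 for all genes tested). AGL15, a MADS domain factor that promotes embryo identity, measured 72.5, 61 and 69.8 FPKM in lec1-4, against 149, 157 and 163 FPKM in Col-0-1 (log2 change -1.20 ± 0.07 SE, adjusted p = 9.99e-06), and 67.5 ± 5.23 FPKM in Col-0-2. HSI2 (also called VAL1), a B3 repressor of the maturation programme, was lower too, at 38.3 ± 1.91 FPKM in lec1-4 and 56 ± 1.14 FPKM in Col-0-1 (log2 change -0.54 ± 0.05 SE, adjusted p = 1.11e-04), and 42.6 ± 1.8 FPKM in Col-0-2. ABI5, a basic leucine zipper activator of LEA genes in abscisic acid responses, went the other way. It measured 14, 12.8 and 16.8 FPKM in lec1-4, against 6.46, 4.95 and 5.92 FPKM in Col-0-1 (log2 change 1.20 ± 0.12 SE, adjusted p = 1.97e-04), and 5.92 ± 0.231 FPKM in Col-0-2. The count depended on the wild-type reference: against the mean of both sets, 11 of the 21 regulators were called higher and 5 lower.

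**Figure D3:**
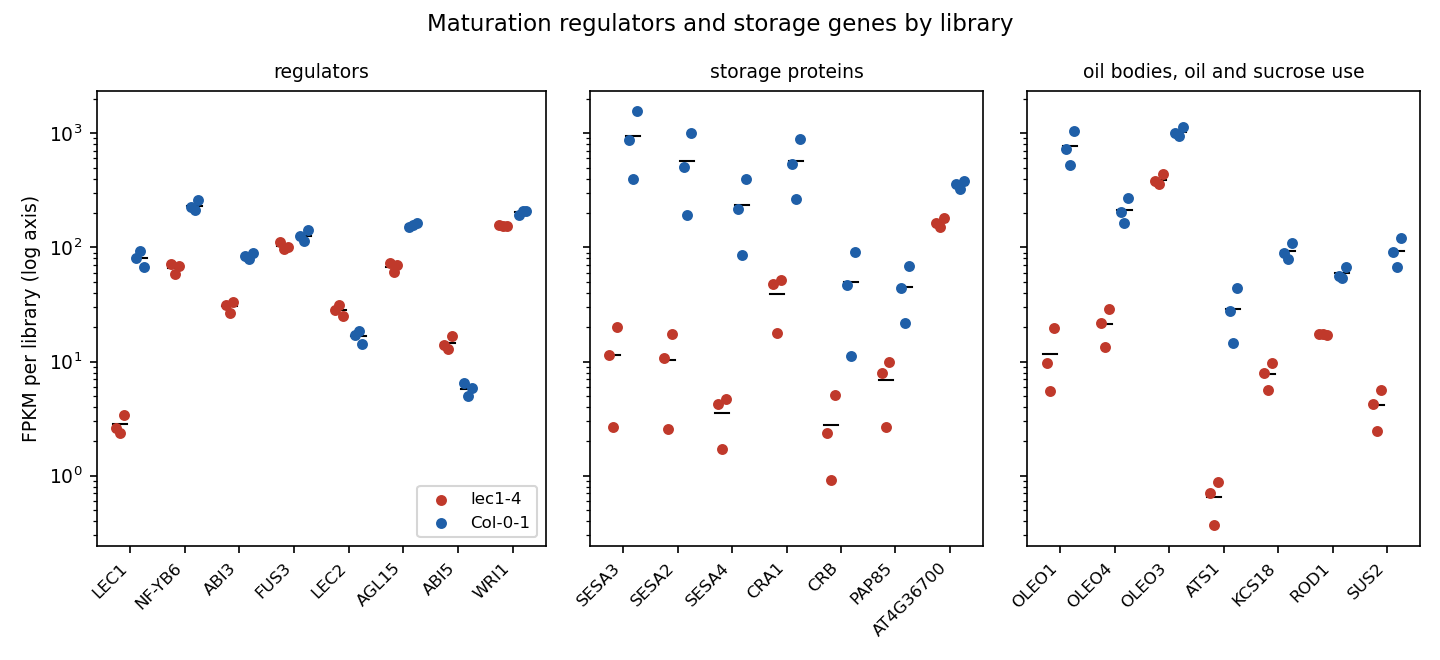
FPKM (log axis) of each library for maturation regulators, storage protein genes and genes of oil bodies, oil synthesis and sucrose use. Red points are the 3 lec1-4 libraries and blue points, to their right, the 3 Col-0-1 libraries, each in replicate order, with bars at the group means. LEC1, ABI3 and every storage and oil gene drawn are lower in lec1-4, while LEC2 and ABI5 are higher.

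The storage genes carried the largest falls. Their promoters are shown because the RY element (CATGCA) and the G-box (CACGTG), the letters that the B3 and basic leucine zipper factors bind, occur in them. Each is the stretch of 250 bases before the gene start in the RefSeq annotation of TAIR10.1, in the gene's own direction. Capitals mark matches to RY, G-box or CCAAT on either strand, and overlapping matches run together.
SESA3 promoter, chr4:13611546-13611795, plus strand: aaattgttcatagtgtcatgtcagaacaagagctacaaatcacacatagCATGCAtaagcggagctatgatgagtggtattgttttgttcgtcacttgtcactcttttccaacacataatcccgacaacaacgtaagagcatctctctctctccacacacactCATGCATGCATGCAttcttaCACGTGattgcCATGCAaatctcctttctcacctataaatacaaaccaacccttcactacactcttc
OLEO1 promoter, chr4:12900180-12900429, plus strand: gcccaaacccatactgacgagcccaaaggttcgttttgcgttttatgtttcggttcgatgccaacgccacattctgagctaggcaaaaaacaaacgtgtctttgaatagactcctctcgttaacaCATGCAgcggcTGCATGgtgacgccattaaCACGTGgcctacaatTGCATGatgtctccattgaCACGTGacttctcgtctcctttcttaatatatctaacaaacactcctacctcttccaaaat
KCS18 promoter, chr4:16493955-16494204, plus strand: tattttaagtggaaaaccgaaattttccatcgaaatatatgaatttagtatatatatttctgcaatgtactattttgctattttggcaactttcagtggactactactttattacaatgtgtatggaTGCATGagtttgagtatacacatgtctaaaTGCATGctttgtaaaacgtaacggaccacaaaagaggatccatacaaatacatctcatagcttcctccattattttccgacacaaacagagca
The SESA3 promoter holds 7 RY matches, overlapping ones counted, and 1 G-box. The OLEO1 promoter holds 3 RY matches and 2 G-boxes, and the KCS18 promoter 2 RY matches and no G-box.

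Of 13 storage protein genes listed, 12 were tested, and all 12 were lower in lec1-4, each by a log2 change of at least 1 (median -3.64; 11 with median-ratio or upper-quartile scaling). Their summed level was 183 to 320 FPKM in the lec1-4 libraries and 1410 to 4861 FPKM in the Col-0-1 libraries. SESA3 (AT4G27160), an albumin stored in the vacuoles of the embryo, measured 11.3, 2.65 and 20.2 FPKM in lec1-4, against 872, 399.9 and 1556 FPKM in Col-0-1 (log2 change -6.38 ± 0.65 SE, adjusted p = 2.27e-04). The highest lec1-4 library was far below the lowest Col-0-1 library, although libraries within each group also differed several-fold. SESA3, among the largest falls, was picked from genes whose groups did not overlap. SESA4, its neighbour in a tandem cluster, measured 4.28, 1.72 and 4.65 FPKM in lec1-4, against 216, 86.5 and 399 FPKM in Col-0-1 (log2 change -5.51 ± 0.50 SE, adjusted p = 1.21e-04), and 6.03 ± 3.19 FPKM in Col-0-2. The SESA copies are closely similar and reads could be split between them, which makes each copy's value uncertain. SESA1 and SESA2 of the same cluster had log2 changes of -3.86 and -5.64.

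The globulins followed. CRA1 (AT5G44120), a cruciferin, measured 48, 17.7 and 51.5 FPKM in lec1-4, against 535, 266 and 896 FPKM in Col-0-1 (log2 change -3.79 ± 0.48 SE, adjusted p = 7.02e-04). The cupin family gene AT2G28490 measured 2.65, 0.70 and 5.32 FPKM in lec1-4, against 61.6, 40.2 and 94 FPKM in Col-0-1 (log2 change -4.20 ± 0.45 SE, adjusted p = 2.96e-04), and 9.26 ± 1.51 FPKM in Col-0-2. AT4G36700, a vicilin-like cupin, had the smallest fall of the list and the least spread. It measured 165, 151 and 181 FPKM in lec1-4, against 358, 321 and 382 FPKM in Col-0-1 (log2 change -1.09 ± 0.08 SE, adjusted p = 4.14e-05), and 318 ± 12.8 FPKM in Col-0-2. The cruciferin gene CRC, at 5.02, 0.265 and 10.6 FPKM in lec1-4 and 68.5, 7.51 and 149.8 FPKM in Col-0-1, passed only just, and its groups overlapped. CRC was chosen after its values were seen.

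Libraries within a group ran in the same order for these genes. In lec1-4 and in Col-0-1 alike, all 12 storage protein genes were lowest in replicate 2 and highest in replicate 3. Their median coefficient of variation was 0.746 in lec1-4 and 0.584 in Col-0-1, against 0.0637 and 0.0635 for all genes tested. Col-0-2 seeds, the other wild-type set, were much closer to lec1-4 than to Col-0-1 in this list, with summed levels of 442 to 553 FPKM. SESA3 measured 29.3 ± 17.6 FPKM and CRA1 75.2 ± 17.6 FPKM in Col-0-2. Against the mean of both wild-type sets, 11 of the 12 genes were lower in lec1-4.

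Genes of oil bodies and oil assembly fell in 12 of 14 cases and rose in none (median log2 change -1.34), and 9 of the falls were of at least 1 on the log2 scale. In 2 of the 12 falls every lec1-4 library was under 1 FPKM, so that these genes passed the filter through Col-0-1 alone. The 2 others, PDAT1 and GPAT9, had log2 changes of 0.16 and -0.09. The lower count was 9 without lec1-4 replicate 1 or Col-0-1 replicate 1. It was 10 without lec1-4 replicate 2 or Col-0-1 replicate 3. OLEO1 (AT4G25140), an oleosin that coats oil bodies, measured 9.73, 5.56 and 19.6 FPKM in lec1-4, against 723, 527 and 1044 FPKM in Col-0-1 (log2 change -6.03 ± 0.38 SE, adjusted p = 1.98e-05). OLEO3, another oleosin gene, stayed abundant, at 380.5, 362 and 434 FPKM in lec1-4 and 1004, 943 and 1136 FPKM in Col-0-1 (log2 change -1.39 ± 0.09 SE, adjusted p = 1.70e-05), and 654 ± 38.2 FPKM in Col-0-2. The caleosin gene ATS1 (AT4G26740), annotated as peroxygenase 1, measured 0.708, 0.37 and 0.89 FPKM in lec1-4, against 27.7, 14.5 and 44.4 FPKM in Col-0-1 (log2 change -4.05 ± 0.33 SE, adjusted p = 7.25e-05), and 1.94 ± 0.375 FPKM in Col-0-2. No lec1-4 library reached the lowest Col-0-1 library in these genes. OLEO1 and ATS1, among the largest falls, were picked from genes whose groups did not overlap, which fixed this in advance. For ATS1 the filter fixed it as well. Among all genes tested, 44.1% did not overlap.

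The enzymes that shape seed oil differed in size of change. KCS18 (AT4G34520, also called FAE1), which lengthens fatty acids in the seed, measured 7.9, 5.6 and 9.78 FPKM in lec1-4, against 89.8, 79 and 109.8 FPKM in Col-0-1 (log2 change -3.44 ± 0.17 SE, adjusted p = 6.92e-06). ROD1, which moves polyunsaturated fatty acids into the oil pathway, measured 17.5, 17.5 and 16.9 FPKM in lec1-4, against 56.6, 53.8 and 66.7 FPKM in Col-0-1 (log2 change -1.71 ± 0.08 SE, adjusted p = 3.64e-06). The fatty acid desaturase genes FAD2 and FAD3 had log2 changes of only -0.21 and -0.26, and TAG1, an acyltransferase that completes the oil molecule, of -0.32. These 3 genes were chosen after their values were seen. Col-0-2 seeds had 105 ± 21.4 FPKM of OLEO1, 33.4 ± 4.24 FPKM of KCS18 and 42.4 ± 4.72 FPKM of ROD1. Against the mean of both wild-type sets, 8 of 14 oil genes were lower and none higher. The summed level of the list was 1695 to 2064 FPKM in lec1-4, 3692 to 5274 FPKM in Col-0-1 and 2003 to 2184 FPKM in Col-0-2.

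SUS2, a sucrose synthase of maturing seeds, was among the 12 largest falls. It measured 4.28, 2.45 and 5.65 FPKM in lec1-4, against 90.8, 67.2 and 120.1 FPKM in Col-0-1 (log2 change -4.20 ± 0.26 SE, adjusted p = 1.60e-05), and 19.7 ± 3.78 FPKM in Col-0-2. The remaining large falls were scpl17, a serine carboxypeptidase-like gene (log2 change -4.87), and AT1G54860, a predicted membrane-anchored glycoprotein gene (-4.71).

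Plastid fatty acid synthesis, which makes the acyl chains for oil, was lower nearly throughout, but by less. Of 33 genes tested, 29 fell and 1, PKP-BETA2, rose (median log2 change -0.60). The count stayed between 28 and 29 lower without any single library, and was 29 against the mean of both wild-type sets. EMB3003, a subunit of plastid pyruvate dehydrogenase, measured 94.1, 90.2 and 89.8 FPKM in lec1-4, against 199, 206 and 196 FPKM in Col-0-1 (log2 change -1.13 ± 0.04 SE, adjusted p = 1.19e-06). CAC3, the carboxyltransferase alpha subunit of acetyl-CoA carboxylase, measured 167, 163 and 170.0 FPKM in lec1-4, against 281, 283 and 279.7 FPKM in Col-0-1 (log2 change -0.75 ± 0.04 SE, adjusted p = 5.16e-06), and 193 ± 4.24 FPKM in Col-0-2. The dehydrogenase gene AT4G16155 (also called LPD2) averaged 77.7 ± 1.77 FPKM in lec1-4 and 133 ± 1.6 FPKM in Col-0-1 (log2 change -0.77 ± 0.04 SE, adjusted p = 5.21e-06), and 89.5 ± 2.73 FPKM in Col-0-2. ACP5, an acyl carrier protein, had the largest fall of the list, with 58, 50.1 and 43.8 FPKM in lec1-4 and 204, 184 and 208 FPKM in Col-0-1 (log2 change -1.96 ± 0.09 SE, adjusted p = 5.26e-06), and 116 ± 10.4 FPKM in Col-0-2. In all 4 genes the groups did not overlap, which also held for 44.1% of all genes tested. WRI1, the factor that activates this pathway, was lower by a smaller margin, at 154 ± 2.26 FPKM in lec1-4 and 202 ± 7.39 FPKM in Col-0-1 (log2 change -0.39 ± 0.04 SE, adjusted p = 2.41e-04); it was chosen after its values were seen. EMB3003 stood at 219 ± 4.86 FPKM in Col-0-2, slightly above Col-0-1.

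Nuclear genes of light harvesting and the photosystems fell in 44 of 45 cases (median log2 change -0.45). The lower count was 39 to 44 without any single library. Arabidopsis embryos are green and photosynthetic while they fill. PSBO2, a subunit of the oxygen-evolving complex, measured 135, 137 and 132 FPKM in lec1-4, against 280.4, 291 and 304 FPKM in Col-0-1 (log2 change -1.11 ± 0.04 SE, adjusted p = 1.54e-06), and 145 ± 7.5 FPKM in Col-0-2. The antenna genes CAB3 and CAB2 measured 139.5 ± 0.665 and 116 ± 6.55 FPKM in lec1-4, against 545 ± 73.9 and 347 ± 26.8 FPKM in Col-0-1 (log2 changes -1.95 and -1.57), and 264 ± 26.1 FPKM and 228 ± 5.72 FPKM in Col-0-2. How reads were divided among the near-identical LHCB1 copies to which they belong is not given, which makes each copy's value uncertain. LHCB3, an antenna gene outside that set, measured 204, 210.2 and 208 FPKM in lec1-4, against 372, 371 and 405 FPKM in Col-0-1 (log2 change -0.88 ± 0.04 SE, adjusted p = 7.55e-06). Col-0-2 seeds had 202 ± 15.9 FPKM of LHCB3, at the lec1-4 level. The summed level of the list was 16260 to 16680 FPKM in lec1-4 and 23020 to 25920 FPKM in Col-0-1. In Col-0-2 it was 14320 to 16090 FPKM, below lec1-4. Against the mean of both wild-type sets 30 of the 45 genes were lower and 5 higher. That mean includes Col-0-1, so the count is not a comparison with Col-0-2 alone.

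Chlorophyll synthesis genes fell in 12 of 14 cases (median log2 change -0.38). CRD1, a cyclase of the pathway, measured 184, 179 and 188 FPKM in lec1-4, against 337, 334 and 347 FPKM in Col-0-1 (log2 change -0.88 ± 0.04 SE, adjusted p = 3.13e-06), and 166 ± 10.5 FPKM in Col-0-2. ALB1, a subunit of magnesium chelatase, averaged 52.1 ± 1.42 FPKM in lec1-4 and 72.1 ± 2.84 FPKM in Col-0-1 (log2 change -0.46), and 46.2 ± 2.8 FPKM in Col-0-2. GPRI1 (also called GLK1), a factor that activates photosynthesis genes in the nucleus, measured 10.1, 7.59 and 11.6 FPKM in lec1-4, against 32.3, 34.1 and 36.5 FPKM in Col-0-1 (log2 change -1.73 ± 0.13 SE, adjusted p = 4.24e-05), and 12.1 ± 1.96 FPKM in Col-0-2. Its paralog GLK2 had a log2 change of 0.14 and did not pass (adjusted p = 0.316). The Col-0-2 means of CRD1 and ALB1 lay under those of lec1-4, and with the mean of both wild-type sets as the comparison 7 genes of the list were lower and 1 higher (median -0.12). In the Calvin cycle, 12 of 18 genes were lower and 4 higher (median -0.25). The transketolase gene AT3G60750 averaged 308 ± 1.07 FPKM in lec1-4 and 431 ± 2.67 FPKM in Col-0-1 (log2 change -0.48 ± 0.04 SE, adjusted p = 4.24e-05), and 347 ± 10.8 FPKM in Col-0-2. The aldolase gene FBA2 had a log2 change of -0.43, and HCEF1, a bisphosphatase, of -0.50. CA1, a plastid carbonic anhydrase, went up instead, at 102, 97.2 and 94.3 FPKM in lec1-4 and 54, 52.2 and 56.6 FPKM in Col-0-1 (log2 change 0.84 ± 0.05 SE, adjusted p = 1.09e-05), and 20.3 ± 0.476 FPKM in Col-0-2. The other 3 rises were RBCS1B, RBCS2B and RBCS3B, Rubisco small subunit genes whose near-identical copies may share reads. With the mean of both wild-type sets as reference, 9 Calvin cycle genes were higher and 4 lower.

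LEA genes, whose proteins accumulate before the seed dries, did not follow the storage genes. Of 20 tested, 9 were higher in lec1-4 and 4 lower, and 7 of the rises and 1 of the falls were of at least 1 on the log2 scale. In 3 of the 20, all of them called higher, every Col-0-1 library was under 1 FPKM, so that they passed the filter through lec1-4 alone; of the other 17, 6 were higher and 4 lower. The list holds 29 genes, and those not tested were under 1 FPKM in most libraries. AT3G15670, annotated as a LEA family protein, measured 23.8, 12.9 and 53.9 FPKM in lec1-4, against 0.99, 0.986 and 0.727 FPKM in Col-0-1 (log2 change 3.81 ± 0.41 SE, adjusted p = 2.83e-04). Every Col-0-1 library was under 1 FPKM, far below the lowest lec1-4 library. AT3G02480, another LEA family gene, measured 56.6, 31.2 and 124 FPKM in lec1-4, against 3.0, 2.69 and 6.46 FPKM in Col-0-1 (log2 change 3.68 ± 0.45 SE, adjusted p = 5.87e-04), and 4.08 ± 0.957 FPKM in Col-0-2. LEA7 measured 44.1, 31.3 and 49.2 FPKM in lec1-4, against 13.8, 11.6 and 16.5 FPKM in Col-0-1 (log2 change 1.49 ± 0.17 SE, adjusted p = 3.90e-04). As in the storage genes, replicate 2 was lowest and replicate 3 highest in lec1-4 for each of these 3.

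The largest fall of the list was in AT5G44310, another LEA family gene, which measured 0.888, 0.478 and 1.36 FPKM in lec1-4, against 10.5, 5.11 and 19.2 FPKM in Col-0-1 (log2 change -2.58 ± 0.38 SE, adjusted p = 0.00153), and 0.332 ± 0.0538 FPKM in Col-0-2. LEA14 fell by less, at 40.7 ± 5.26 FPKM in lec1-4 and 67.6 ± 4.01 FPKM in Col-0-1 (log2 change -0.72 ± 0.09 SE, adjusted p = 5.18e-04), and 25.7 ± 1.75 FPKM in Col-0-2. Both genes were chosen after their values were seen. The dehydrin genes COR47 and ERD10, which also respond to cold, measured 209 ± 9.09 and 201 ± 18.2 FPKM in lec1-4, against 304 ± 6.32 and 303 ± 3.47 FPKM in Col-0-1 (log2 changes -0.54 and -0.59, adjusted p = 7.15e-05 and 2.52e-04). Col-0-2 seeds had 120.0 ± 11.8 FPKM of COR47 and 82.9 ± 7.2 FPKM of ERD10, so lec1-4 lay between the wild-type sets. LEA7 in Col-0-2 was at 3.88 ± 1.4 FPKM and AT3G15670 at 0.50 ± 0.362 FPKM, both below lec1-4. Against the mean of both sets, 12 LEA genes were higher and 4 lower.

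**Figure D4:**
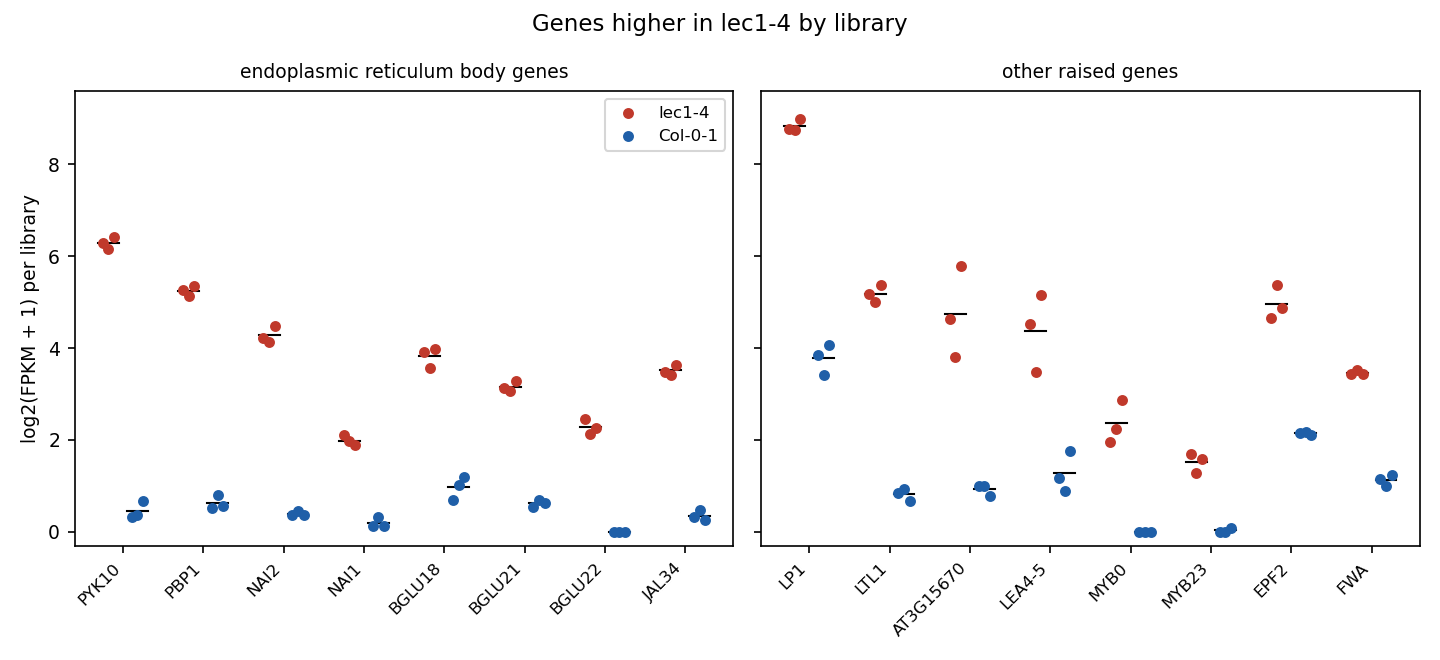
Level in log2(FPKM + 1) of each library (vertical axis) for genes of endoplasmic reticulum bodies and for other genes higher in lec1-4. Red points are the 3 lec1-4 libraries and blue points, to their right, the 3 Col-0-1 libraries, each in replicate order, with bars at the group means. In no gene drawn do the groups overlap, which also held for 44.1% of all genes tested. The filter left no other outcome for genes under 1 FPKM in every Col-0-1 library. MYB0 and BGLU22 are at 0 in every Col-0-1 library.

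The largest rise of all was in PYK10 (AT3G09260), a beta-glucosidase that fills the endoplasmic reticulum (ER) bodies of seedlings and roots. PYK10 measured 76.3, 70.0 and 84.6 FPKM in lec1-4, against 0.261, 0.297 and 0.597 FPKM in Col-0-1 (log2 change 5.82 ± 0.11 SE, adjusted p = 1.37e-07). All Col-0-1 values were under 1 FPKM, and Col-0-2 seeds had 0.284 ± 0.173 FPKM. PBP1, a lectin that binds PYK10, measured 37.6, 34.2 and 39.5 FPKM in lec1-4, against 0.434, 0.756 and 0.489 FPKM in Col-0-1 (log2 change 4.61 ± 0.10 SE, adjusted p = 2.69e-07). NAI2, which ER bodies need in order to form, measured 17.6, 16.6 and 21.4 FPKM in lec1-4, against 0.294, 0.373 and 0.294 FPKM in Col-0-1 (log2 change 3.88 ± 0.12 SE, adjusted p = 4.57e-07). Both were also near 1 FPKM or below in Col-0-2, at 1.1 ± 0.265 FPKM for PBP1 and 0.595 ± 0.194 FPKM for NAI2. The PYK10 promoter is printed for comparison with those of the storage genes: it holds no RY, G-box or CCAAT match in this window, which says nothing about the factors that act on it.
PYK10 promoter, chr3:2843782-2844031, minus strand: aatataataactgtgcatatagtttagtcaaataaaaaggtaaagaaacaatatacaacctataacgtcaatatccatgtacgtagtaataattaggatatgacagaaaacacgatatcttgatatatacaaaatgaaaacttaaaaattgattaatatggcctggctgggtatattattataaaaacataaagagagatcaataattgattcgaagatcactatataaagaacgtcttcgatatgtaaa

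A list of 23 ER body genes was drawn up after the values were seen, and 16 of them passed the filter on low values. In 9 of the 16, every Col-0-1 library was under 1 FPKM, so that they passed through lec1-4 alone and could only be higher there. Of the other 7, 5 were called higher, against 16.7% of all genes tested, and none lower. As the list followed the values, this count is a description only. The other 2, BGLU25 and GLL25, had log2 changes of 0.22 and 0.17. Among the 5, TSA1 and JAL35 averaged 5.3 and 14.3 FPKM in lec1-4 but 7.61 and 18.5 FPKM in Col-0-2. BGLU18, MEB1 and GLL22 averaged less in Col-0-2 than in lec1-4. NAI1, the basic helix-loop-helix activator of ER body genes, measured 3.3, 2.92 and 2.71 FPKM in lec1-4, against 0.0982, 0.245 and 0.0984 FPKM in Col-0-1. BGLU18, a beta-glucosidase of stress-induced ER bodies in leaves, measured 14, 10.9 and 14.8 FPKM in lec1-4, against 0.608, 1.04 and 1.29 FPKM in Col-0-1. BGLU21 measured 7.76, 7.36 and 8.71 FPKM in lec1-4 and 0.465, 0.617 and 0.543 FPKM in Col-0-1, and its relative BGLU22 measured 4.47, 3.4 and 3.77 FPKM in lec1-4 and was listed at 0 in the 3 Col-0-1 libraries. The lectin gene JAL34 measured 10.2, 9.72 and 11.5 FPKM in lec1-4, against 0.25, 0.388 and 0.195 FPKM in Col-0-1. Groups did not overlap in BGLU18, which also held for 44.1% of all genes tested. In NAI1, BGLU21, BGLU22 and JAL34 the filter left no other outcome, and the 5 were chosen after their values were seen. Adjusted p-values of the 5 lay between 1.38e-06 for JAL34 and 5.58e-05 for NAI1.

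The other large rises were in single genes of several kinds. LP1 (AT2G38540, lipid transfer protein 1), expressed in epidermal cells, measured 434, 427 and 506 FPKM in lec1-4, against 13.4, 9.69 and 15.7 FPKM in Col-0-1 (log2 change 5.05 ± 0.14 SE, adjusted p = 3.98e-07), and 307 ± 150.0 FPKM in Col-0-2. The 3 Col-0-2 libraries, however, had 480, 232 and 209.5 FPKM, a range that overlapped that of lec1-4. LTL1, a GDSL-type lipase, measured 35, 30.9 and 40.1 FPKM in lec1-4, against 0.811, 0.898 and 0.587 FPKM in Col-0-1 (log2 change 4.36 ± 0.12 SE, adjusted p = 3.30e-07), and 0.82 ± 0.166 FPKM in Col-0-2. CYP77B1, a cytochrome P450, measured 9.94, 8.55 and 11.9 FPKM in lec1-4 and was listed at 0 in all 3 Col-0-1 libraries (adjusted p = 1.87e-06). AT5G23820, with an MD-2-related lipid recognition domain, measured 15.1, 10.7 and 13.2 FPKM in lec1-4 and was likewise listed at 0 in Col-0-1 (adjusted p = 1.22e-06). No fold is given for these, as a listed 0 gives no bound. LTL1, CYP77B1 and AT5G23820 were under 1 FPKM in every Col-0-1 library. They passed the filter through lec1-4 alone and could only be higher there.

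GER3, a germin, measured 12.8, 9.87 and 12.4 FPKM in lec1-4, against 0.151, 0.226 and 0.227 FPKM in Col-0-1 (log2 change 3.39 ± 0.12 SE, adjusted p = 1.38e-06), and 0.0924 ± 0.0507 FPKM in Col-0-2. It too passed the filter through lec1-4 alone and could only be higher there. AT2G15010, annotated as a thionin, measured 37.4, 29.5 and 57 FPKM in lec1-4, against 3.79, 2.11 and 5.02 FPKM in Col-0-1 (log2 change 3.19 ± 0.27 SE, adjusted p = 8.98e-05), and 1.08 ± 0.0519 FPKM in Col-0-2. AT4G29030, a putative membrane lipoprotein gene, averaged 97.6 ± 8.3 FPKM in lec1-4 and 8.72 ± 2.29 FPKM in Col-0-1 (log2 change 3.37 ± 0.16 SE, adjusted p = 4.59e-06). Its level in Col-0-2 was 38.4 ± 3.92 FPKM, between them.

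The other genes of the epidermis and cuticle list changed less than LP1. Of 20 tested, LP1 and LTP2 (log2 change 1.97) included, 8 were higher and 3 lower in lec1-4, but with median-ratio scaling 5 were higher and 6 lower. PDF1, expressed in the outer cell layer, measured 599.6, 550.4 and 625 FPKM in lec1-4, against 411, 409.7 and 406 FPKM in Col-0-1 (log2 change 0.53 ± 0.05 SE, adjusted p = 1.90e-04), and 232 ± 19.7 FPKM in Col-0-2. CER1, an enzyme of alkane wax synthesis, averaged 33.3 ± 2.25 FPKM in lec1-4 and 17.8 ± 2.57 FPKM in Col-0-1 (log2 change 0.88 ± 0.10 SE, adjusted p = 4.15e-04), and 17.5 ± 1.56 FPKM in Col-0-2. BDG1, needed for the cuticle, averaged 25.4 ± 1.4 FPKM in lec1-4 and 17.8 ± 0.165 FPKM in Col-0-1 (log2 change 0.49 ± 0.06 SE, adjusted p = 4.28e-04), and 17.7 ± 1.65 FPKM in Col-0-2. The outer layer identity gene ATML1, chosen after its values were seen, rose by a small amount, at 65.8 ± 0.592 FPKM in lec1-4 and 59.1 ± 1.06 FPKM in Col-0-1 (log2 change 0.15, adjusted p = 0.0171). Of the type 1 lipid transfer protein genes, listed after the values were seen, 5 of 8 tested were higher and 1, LTP5, was lower. Some of them, LP1 and LTP2 included, are also in the epidermis and cuticle list. Among the 5, LTP6 and LTP7 averaged 1408 and 13 FPKM in lec1-4 but 3155 and 46.4 FPKM in Col-0-2. LP1, LTP2 and LTP10 averaged less in Col-0-2 than in lec1-4.

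Trichome regulators were higher in 7 of 13 cases and lower in none. MYB0 and MYB23 were under 1 FPKM in every Col-0-1 library and passed the filter through lec1-4 alone; of the other 11 regulators, 5 were higher. MYB0 (AT3G27920, also called GL1), the MYB factor that starts leaf trichomes, measured 2.89, 3.72 and 6.36 FPKM in lec1-4 and was listed at 0 in the 3 Col-0-1 libraries and the 3 Col-0-2 libraries (adjusted p = 1.60e-04 against Col-0-1). MYB23, a close relative, measured 2.26, 1.42 and 2.02 FPKM in lec1-4, against 0, 0 and 0.0694 FPKM in Col-0-1 (adjusted p = 3.57e-04). Both levels are low, and the filter left no outcome other than lec1-4 libraries above all Col-0-1 libraries. The single-repeat MYB inhibitor CPC averaged 13.1 ± 1.28 FPKM in lec1-4 and 7.83 ± 1.0 FPKM in Col-0-1 (log2 change 0.68 ± 0.10 SE, adjusted p = 0.00175), and 9.06 ± 0.86 FPKM in Col-0-2. Its relative CPL3 averaged 12.5 ± 1.95 FPKM in lec1-4 and 7.51 ± 1.27 FPKM in Col-0-1 (log2 change 0.67 ± 0.14 SE, adjusted p = 0.0077), but Col-0-2 had 19.4 ± 1.97 FPKM, and CPL3 was not called against the mean of both sets. GL2, which acts after GL1 and also in the seed coat, was far more abundant and did not pass, at 212 ± 30.6 FPKM in lec1-4 and 187 ± 17.4 FPKM in Col-0-1 (adjusted p = 0.272).

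Stomatal lineage genes moved in both directions, with 3 of 13 higher and 6 lower, 69.2% called against 27.9% of all genes. In 1 of the 13 every Col-0-1 library was under 1 FPKM, and in 1 every lec1-4 library. These passed the filter through 1 group alone. Of the other 11, 2 were higher and 5 lower. The 6 lower became 3 without lec1-4 replicate 2 or 3 or Col-0-1 replicate 3. The balance turned when lec1-4 was set against the mean of both wild-type sets, with 7 higher and 2 lower. EPF2, a peptide that limits entry into the lineage, had by far the largest change. It measured 24.1, 40.6 and 28.1 FPKM in lec1-4, against 3.43, 3.53 and 3.33 FPKM in Col-0-1 (log2 change 2.82 ± 0.16 SE, adjusted p = 1.25e-05), and 12.8 ± 4.27 FPKM in Col-0-2. The receptor kinase genes ERL1 and ER averaged 13.1 ± 1.14 and 58 ± 4.79 FPKM in lec1-4, against 19.4 ± 0.792 and 77.8 ± 0.926 FPKM in Col-0-1 (log2 changes -0.54 and -0.42). STOMAGEN, a peptide that promotes stomata, was lower as well, at 2.63 ± 0.0943 FPKM in lec1-4 and 4.33 ± 0.303 FPKM in Col-0-1 (log2 change -0.55 ± 0.10 SE, adjusted p = 0.0044), and 0.79 ± 0.309 FPKM in Col-0-2. ER and STOMAGEN had the opposite sign against the mean of both wild-type sets, without passing the test.

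Leaf polarity and meristem genes included 8 lower and 2 higher of 20 (median log2 change -0.20). The lower count was 3 without Col-0-1 replicate 1, 5 without Col-0-1 replicate 2 or 3 or lec1-4 replicate 1, and against the mean of both wild-type sets 9 genes were higher and 3 lower. PHB, a factor of the upper leaf side, measured 46.7, 47.4 and 46.2 FPKM in lec1-4, against 61.5, 63.1 and 60.8 FPKM in Col-0-1 (log2 change -0.39 ± 0.04 SE, adjusted p = 1.79e-04), and 45.6 ± 2.27 FPKM in Col-0-2. REV, of the same family, measured 49.5, 49.5 and 48.7 FPKM in lec1-4, against 41.4, 41.7 and 41.7 FPKM in Col-0-1 (log2 change 0.24 ± 0.04 SE, adjusted p = 0.0024), and 41.7 ± 2.15 FPKM in Col-0-2, and was thus higher in lec1-4. CUC1, which marks the boundary between cotyledons, averaged 13.7 ± 2.21 FPKM in lec1-4 and 7.83 ± 1.25 FPKM in Col-0-1 (log2 change 0.73 ± 0.14 SE, adjusted p = 0.00504), and 8.11 ± 1.24 FPKM in Col-0-2. KNAT6, a meristem homeobox gene, averaged 5.75 ± 1.16 FPKM in lec1-4 and 9.63 ± 0.708 FPKM in Col-0-1 (log2 change -0.67 ± 0.12 SE, adjusted p = 0.00528), and 7.83 ± 0.873 FPKM in Col-0-2.

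Most hormone genes that changed did so by small amounts. Of 11 gibberellin synthesis genes tested, 6 were lower and 1 higher (median log2 change -0.22; 5 lower and 3 higher against the mean of both wild-type sets). The single rise was not called without lec1-4 replicate 1, 2 or 3 or Col-0-1 replicate 1 or 3, or with median-ratio scaling. CYP88A3 (also called KAO1), a mid-pathway oxidase, averaged 72.6 ± 2.89 FPKM in lec1-4 and 97.2 ± 2.55 FPKM in Col-0-1 (log2 change -0.42 ± 0.04 SE, adjusted p = 2.61e-04), and 83.8 ± 2.98 FPKM in Col-0-2. GA1, which makes the pathway's committed intermediate, averaged 1.21 ± 0.0816 FPKM in lec1-4 and 3.12 ± 0.303 FPKM in Col-0-1 (log2 change -0.90 ± 0.12 SE, adjusted p = 8.87e-04), and 1.33 ± 0.248 FPKM in Col-0-2. The genes GA3OX3 and GA3OX4, for the last activating step, had log2 changes of -0.82 and -0.67. Of 12 genes for gibberellin inactivation, receptors and DELLA proteins, 4 were higher and 1, GA2OX2, lower, 41.7% called against 27.9% of all genes. The higher count was 2 without lec1-4 replicate 1 or 3 or Col-0-1 replicate 1 or 2 and with median-ratio or upper-quartile scaling, and 7 against the mean of both wild-type sets. The receptor gene GID1B was highest in change, at 5.79, 6.53 and 8.62 FPKM in lec1-4 and 2.65, 3.07 and 2.36 FPKM in Col-0-1 (log2 change 1.10 ± 0.14 SE, adjusted p = 8.46e-04), and 2.6 ± 0.236 FPKM in Col-0-2. SLY1, which targets DELLA proteins for breakdown, averaged 32.5 ± 0.702 FPKM in lec1-4 and 26.2 ± 2.1 FPKM in Col-0-1 (log2 change 0.30 ± 0.06 SE, adjusted p = 0.00839), and 27.6 ± 1.93 FPKM in Col-0-2. The DELLA genes GAI and RGA did not pass, with log2 changes of 0.05 and -0.03, and the call of RGL2 (0.17) was lost without lec1-4 replicate 1 (0.14, adjusted p = 0.107) or 3 (0.18, adjusted p = 0.0649) and without Col-0-1 replicate 1 (0.17, adjusted p = 0.0968) or 2 (0.16, adjusted p = 0.0856).

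Abscisic acid genes were higher in 6 of 20 cases and lower in 1, a share called of 35%, near the 27.9% of all genes. ABI1, a phosphatase that restrains the signal, averaged 31.3 ± 1.5 FPKM in lec1-4 and 21.9 ± 0.20 FPKM in Col-0-1 (log2 change 0.50 ± 0.05 SE, adjusted p = 2.48e-04), and 26 ± 1.72 FPKM in Col-0-2. NCED9, a synthesis gene of seeds, averaged 32.5 ± 0.838 FPKM in lec1-4 and 25.7 ± 2.25 FPKM in Col-0-1 (log2 change 0.33 ± 0.07 SE, adjusted p = 0.00722), and 7.59 ± 0.927 FPKM in Col-0-2. The breakdown gene CYP707A3 averaged 3.27 ± 0.413 FPKM in lec1-4 and 1.64 ± 0.246 FPKM in Col-0-1 (log2 change 0.70 ± 0.13 SE, adjusted p = 0.00517), and 2.4 ± 0.627 FPKM in Col-0-2. Auxin genes were lower in 5 of 15 cases and higher in 4, 60% called against 27.9% of all genes. The higher count was 2 without lec1-4 replicate 1 or 2 or Col-0-1 replicate 1 or 2 and with median-ratio or upper-quartile scaling. In 1 of the 15 auxin genes every Col-0-1 library was under 1 FPKM, and in 1 every lec1-4 library. Of the other 13, 3 were higher and 5 lower. YUC10, an auxin synthesis gene of seeds, measured 2.85, 3.3 and 2.91 FPKM in lec1-4, against 7.48, 6.75 and 9.6 FPKM in Col-0-1 (log2 change -1.14 ± 0.13 SE, adjusted p = 3.77e-04), and 6.36 ± 0.876 FPKM in Col-0-2. YUC4 and TAA1 of the same route had log2 changes of -0.99 and -0.49, and TAR2, a relative of TAA1, of 0.85. The auxin counts were 7 higher and 3 lower against the mean of both wild-type sets.

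The endosperm surrounds and feeds the embryo. Of 9 endosperm genes tested, 3 were higher and 2 lower, and 1 was higher and 1 lower without lec1-4 replicate 1 or 2. Without lec1-4 replicate 3 or any 1 Col-0-1 replicate, 2 were higher and 1 lower. FWA, an imprinted homeodomain gene expressed from the maternal copy in endosperm, measured 9.82, 10.5 and 9.78 FPKM in lec1-4, against 1.24, 0.986 and 1.38 FPKM in Col-0-1 (log2 change 2.33 ± 0.10 SE, adjusted p = 3.95e-06). Col-0-2 seeds had 6.45 ± 0.98 FPKM. EPR1, an extensin-like gene of the endosperm, measured 641, 511 and 679 FPKM in lec1-4, against 1363, 1172 and 1609 FPKM in Col-0-1 (log2 change -1.18 ± 0.13 SE, adjusted p = 3.77e-04). Its level in Col-0-2 was 437 ± 47.8 FPKM. The endosperm regulator RGE1 (also called ZOU) had a log2 change of 0.22 that passed the test by a small margin, a call lost without lec1-4 replicate 1 or 2 or Col-0-1 replicate 3 (adjusted p = 0.0739, 0.089 and 0.0715). The call of the cytokinin oxidase gene CKX2 (0.40) was lost without any 1 of the lec1-4 replicates or Col-0-1 replicate 1 or 2 (adjusted p between 0.0521 and 0.068).

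The seed coat is maternal tissue. Of its 16 flavonoid genes tested, 8 were higher and none lower (median log2 change 0.34), but against the mean of both wild-type sets 4 were higher and 1 lower (median 0.06). GSTF12 (also called TT19), needed for tannin transport, measured 199, 231 and 222 FPKM in lec1-4, against 149, 167 and 128 FPKM in Col-0-1 (log2 change 0.56 ± 0.09 SE, adjusted p = 0.00282), and 197 ± 28.1 FPKM in Col-0-2. BAN, an enzyme of tannin synthesis, averaged 448 ± 11.8 FPKM in lec1-4 and 354 ± 35.4 FPKM in Col-0-1 (log2 change 0.34 ± 0.07 SE, adjusted p = 0.0067). LDOX and AHA10 had log2 changes of 0.60 and 0.46. Levels in Col-0-2 were 528 ± 56.7 FPKM for BAN and 417 ± 54.3 FPKM for LDOX, above both groups, and neither gene was called against the mean of both wild-type sets. F3H, an early enzyme of the same pathway, was listed at 0 in every library while its neighbours were abundant, so its 0 is not read as absence. Of 22 mucilage genes, 3 were higher and 1, BXL1, lower, a share called of 18.2%, below the 27.9% of all genes. Without Col-0-1 replicate 3, 2 were higher and 2 lower. Against the mean of both wild-type sets, 9 were higher and 3 lower. BXL1, a xylosidase that trims cell wall polymers, averaged 289.9 ± 5.64 FPKM in lec1-4 and 365 ± 8.21 FPKM in Col-0-1 (log2 change -0.33 ± 0.04 SE, adjusted p = 4.57e-04), and 595 ± 58.2 FPKM in Col-0-2. AP2, a regulator of seed coat development, averaged 40.0 ± 1.31 FPKM in lec1-4 and 33.6 ± 1.17 FPKM in Col-0-1 (log2 change 0.25 ± 0.05 SE, adjusted p = 0.00596), and 30.7 ± 1.06 FPKM in Col-0-2. COBL2 and SOS5, both needed for mucilage to adhere, had log2 changes of 0.25 and 0.15, and SOS5 lost its call without any 1 of the 6 libraries. No tested gene of the mucilage list changed by more than BXL1.

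Of 36 cell cycle genes, 10 were higher and 3 lower, 36.1% called against 27.9% of all genes. The counts depended on the libraries: 6 were higher without lec1-4 replicate 1 or 3, 15 without Col-0-1 replicate 2, and 25 higher and none lower against the mean of both wild-type sets. Only 1 was lower without lec1-4 replicate 1 or Col-0-1 replicate 1. The cyclin gene CYCD3;3 measured 41.9, 44.7 and 49.5 FPKM in lec1-4, against 29.1, 27 and 26.8 FPKM in Col-0-1 (log2 change 0.69 ± 0.07 SE, adjusted p = 1.68e-04), and 41.1 ± 0.398 FPKM in Col-0-2. The mitotic genes CYCB1;3, CDC20.1 and CDKB1;2 had log2 changes of 0.57, 0.28 and 0.35. CYCD3;1 and CYCD3;2, of the same subfamily as CYCD3;3, were among the 3 falls (-0.31 and -0.28), and both were chosen after their values were seen. Starch genes were higher in 8 of 17 cases and lower in 3, with 1 lower without lec1-4 replicate 2 or Col-0-1 replicate 3, and 13 higher and none lower against the mean of both wild-type sets. APL3, a large subunit of the first committed enzyme, measured 48.8, 54.9 and 54.5 FPKM in lec1-4, against 26.5, 29.7 and 22.4 FPKM in Col-0-1 (log2 change 0.99 ± 0.10 SE, adjusted p = 1.71e-04), and 48.2 ± 10.9 FPKM in Col-0-2. The branching enzyme gene SBE2.1 averaged 101 ± 5.13 FPKM in lec1-4 and 71.6 ± 3.07 FPKM in Col-0-1 (log2 change 0.49 ± 0.05 SE, adjusted p = 2.39e-04), and the granule-bound synthase gene GBSS1 had a log2 change of 0.36.

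Of 12 sugar and amino acid supply genes, 4 were lower and 2 higher (5 and 5 against the mean of both wild-type sets). Against Col-0-1, 50% were called, beside 27.9% of all genes. Besides SUS2, the sucrose transporters SUC2 and SUC5 were lower. SUC2, of the phloem, averaged 60.5 ± 2.1 FPKM in lec1-4 and 108 ± 8.71 FPKM in Col-0-1 (log2 change -0.83 ± 0.06 SE, adjusted p = 3.81e-05), and 51.5 ± 4.38 FPKM in Col-0-2. SUC5, of the endosperm, averaged 54.1 ± 3.22 FPKM in lec1-4 and 83.6 ± 1.94 FPKM in Col-0-1 (log2 change -0.62 ± 0.05 SE, adjusted p = 6.82e-05), and 137 ± 6.81 FPKM in Col-0-2. The amino acid importer AAP1 was higher, at 98 ± 1.23 FPKM in lec1-4 and 66.5 ± 2.97 FPKM in Col-0-1 (log2 change 0.55 ± 0.04 SE, adjusted p = 5.70e-05), and 91.3 ± 5.76 FPKM in Col-0-2. In the storage vacuole, the water channel gene BETA-TIP measured 5.84, 3.07 and 6.51 FPKM in lec1-4, against 21.6, 15 and 34.4 FPKM in Col-0-1 (log2 change -1.98 ± 0.30 SE, adjusted p = 0.00189), and 7.05 ± 1.25 FPKM in Col-0-2. BETA-VPE, which processes storage proteins, averaged 49 ± 6.79 FPKM in lec1-4 and 70.9 ± 4.89 FPKM in Col-0-1 (log2 change -0.53 ± 0.10 SE, adjusted p = 0.00453), and 29.1 ± 2.3 FPKM in Col-0-2. Its relative of the seed coat, DELTA-VPE, was higher (0.38), a call lost without lec1-4 replicate 2 (0.32, adjusted p = 0.0731) or 3 (0.38, adjusted p = 0.0616).

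Other tissues and handling were checked by markers. Of 9 silique wall markers, 1, NAC012, was lower (log2 change -0.53; adjusted p = 0.0541 without Col-0-1 replicate 3), and their summed level was 218 to 246 FPKM in lec1-4 and 219 to 225 FPKM in Col-0-1. Wounding and touch genes were higher in 4 of 14 cases and lower in 3, 50% called against 27.9% of all genes. Their sums were 403 to 444 FPKM in lec1-4 and 329 to 384 FPKM in Col-0-1. Among them CML38 and TCH2, calmodulin-like genes, had log2 changes of 1.84 and 1.27, and the jasmonate repressor gene JAZ10 of -1.06. Of 11 clock genes, ELF4 was higher (0.73) and PRR7 lower (-0.24), 18.2% called against 27.9% of all genes. Against the mean of both wild-type sets, 6 silique wall markers were higher and none lower, 5 wounding and touch genes were higher and 5 lower, and 6 clock genes were higher and 1 lower. Sums in Col-0-2 were 159.5 to 170.4 FPKM for silique wall markers and 581 to 672 FPKM for wounding and touch genes. The part of these markers in the results above was not tested.

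**Figure D5:**
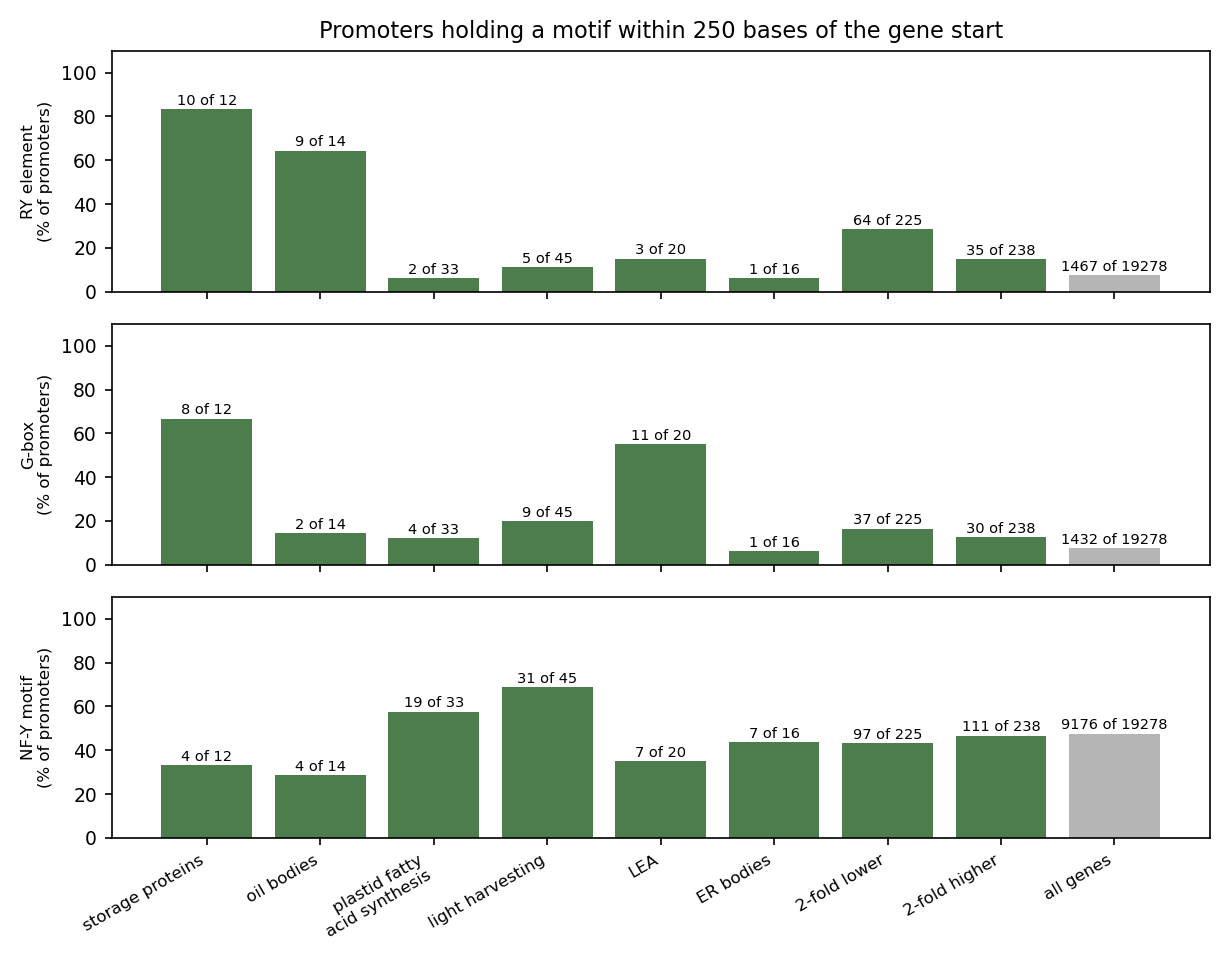
Share of promoters (vertical axis, percent, from 0) that hold an RY element, a G-box or the NF-Y motif on either strand in the 250 bases before the gene start, for gene lists, for genes called with a log2 change of at least 1 in either direction and for all genes tested (grey). Numbers above bars are promoters with the motif of all promoters in the set. The RY element is in 10 of 12 storage protein promoters, against 7.61% of all promoters.

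The motifs of the factors named above were counted in the 250 bases before each gene start, on both strands. The RY element was in 10 of 12 storage protein promoters (83.3%) and 9 of 14 oil body promoters (64.3%), against 7.61% of the 19278 promoters of genes tested. It was in 28.4% of the 225 promoters of genes lower by a log2 change of at least 1, and in 14.7% of the 238 of genes higher by as much. The G-box was in 8 of 12 storage protein promoters (66.7%) and 11 of 20 LEA promoters (55.0%), against 7.43% of all. The letters CCAAT, short enough to be common, were in 47.6% of all promoters, in 31 of 45 light-harvesting promoters (68.9%) and in 4 of 12 storage protein promoters (33.3%). ER body promoters held the RY element in 1 of 16 cases (6.25%) and CCAAT in 7 of 16 (43.8%). A match is a run of letters and does not show that a factor binds.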

How the data were processed

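RNA was sequenced from whole developing seeds in 12 libraries, 3 per group, from 3 µg of RNA each with poly-T bead selection and a kit that does not mark strand, per the labels. Reads from a gene and an overlapping antisense gene therefore cannot be told apart. The authors deposited FPKM values per gene, per the file headers. DESeq 1.18.0, HTSeq 0.6.1, TopHat2 2.0.12 and Bowtie2 2.2.3 are named, without their roles, per the submitters' processing notes, and the genome build is not given in the sources used here. Counts were not available, so no count model was used. Steps in the FPKM of low genes with RefSeq TAIR10.1 exon lengths gave the depth estimates. Of 1541 genes, 51.2% lay within 2% of the pooled median estimate, which was scaled to each library by its relative depth. The depths are therefore approximate.

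Values were taken as log2(FPKM + 1), and the 6 libraries were fitted with limma 3.58.1 (R 4.3.3) with an intensity trend and group means for lec1-4 and Col-0-1 (4 residual degrees of freedom), after the filter of 1 FPKM in 3 libraries. P-values were adjusted by the Benjamini-Hochberg method over 19375 genes, and a gene was called at an adjusted p under 0.05. Fold changes on this scale understate those of low genes. The fit was tested on simulated data. The gene lists and members were chosen with earlier results of these data known. Text names LEC1, LEC2, FUS3, ABI3 and NF-YB6, the 12 largest rises and 12 largest falls among called genes whose groups did not overlap and whose higher group averaged 5 FPKM or more, and up to 4 called members of each list with the smallest p. Any other gene was chosen after its values were seen. Alternatives were other scalings, filters, a pseudocount of 0.1, a fold limit, all 12 libraries, a replicate block and each library left out. Gene names and promoters came from RefSeq TAIR10.1, which held 32835 of 33602 gene identifiers. Python 3.11.15 with pandas 2.3.3 and matplotlib 3.10.9 was used for summaries and plots.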

Additional observations from a re-analysis of the deposited data

How the results depend on the processing

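The count of genes called higher or lower stayed within 1.5 times 5405 under median-ratio scaling, upper-quartile scaling, equal FPKM sums, a filter of 5 FPKM, no filter, no intensity trend, all 12 libraries in 1 model, removal of the length trend and a pseudocount of 0.1. With a pseudocount of 0.1, 726 genes passed a log2 change of 1, against 467. At an adjusted p under 0.01, 2813 genes were called (1540 higher, 1273 lower), and limma's test against a log2 change of 0.5 called 493 (243 higher, 250 lower), both of them stricter by construction. Without 1 library at a time, 3700 to 4760 genes were called, 2116 to 2808 higher and 1584 to 1975 lower, and 461 to 517 passed a log2 change of 1. Against the mean of both wild-type sets, an alternative chosen after seeing the data, 10000 genes were called, 6801 of them higher and 3199 lower; of the 5405 genes, 3317 were called again in the same direction and 433 in the opposite one, and the cause was not tested. None of the other settings called any of the 5405 in the opposite direction.

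With that mean, named genes took the opposite sign, with log2 changes of 0.44 for FUS3, 0.13 for COR47, 0.34 for ERD10, 0.15 for FBA2, 0.091 for ER, 0.24 for STOMAGEN, -0.021 for SOS5, 0.10 for BETA-VPE, -0.33 for DELTA-VPE, 0.15 for PRR7 and 0.51 for NAC012; the cause was not tested. SOS5 lost its call without any 1 of the 6 libraries, and FUS3, CKX2, RGE1 and RGL2 lost theirs without some of them.

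A fit with a replicate block called 5583 genes (3297 higher, 2286 lower). The labels give no shared harvest behind the numbers. Deviations of same-numbered lec1-4 and Col-0-1 libraries correlated at 0.021, 0.204 and 0.087, and those of differently numbered ones at -0.154 to 0.0737. Storage protein genes ran in the same replicate order in both groups. Whether same-numbered libraries share more than a number was not tested. FPKM without counts gives no counting error, and depth limits what low genes can show. A value listed at 0 may be a failed estimate: F3H and BZIP53 were listed at 0 in all libraries.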

Other observations

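Further groups were listed only after their values were seen, and their counts are a description. Of 18 iron genes listed, 15 were tested, and 10 of these were lower and 4 higher in lec1-4. Among all genes tested, 11.2% were lower and 16.7% higher. In 5 of the 10, every lec1-4 library was under 1 FPKM, so that they passed the filter through Col-0-1 alone; of the other 10 genes tested, 5 were lower and 4 higher. BHLH100, a factor induced when iron is short, measured 0.455, 0.523 and 0.194 FPKM in lec1-4, against 7.34, 7.13 and 12.6 FPKM in Col-0-1 (log2 change -2.82 ± 0.21 SE, adjusted p = 4.33e-05), and 0.0568 ± 0.0494 FPKM in Col-0-2. BHLH38, of the same subgroup, was listed at 0 in the 3 lec1-4 libraries, measured 3.25, 2.5 and 6.5 FPKM in Col-0-1 and was listed at 0 in the 3 Col-0-2 libraries too. FRO3, a ferric reductase, measured 4.99, 2.67 and 3.54 FPKM in lec1-4, against 11.8, 12.2 and 14.4 FPKM in Col-0-1 (log2 change -1.57 ± 0.17 SE, adjusted p = 3.01e-04), and 3.71 ± 1.02 FPKM in Col-0-2. VIT1, which loads iron into the vacuoles of the embryo, measured 6.23, 4.86 and 5.3 FPKM in lec1-4, against 23.5, 19.3 and 25.2 FPKM in Col-0-1 (log2 change -1.87 ± 0.12 SE, adjusted p = 1.64e-05), and 12.6 ± 1.69 FPKM in Col-0-2. The iron store gene FER1 measured 100.1, 129.9 and 123 FPKM in lec1-4, against 54.2, 62.8 and 41.6 FPKM in Col-0-1 (log2 change 1.15 ± 0.14 SE, adjusted p = 6.79e-04), and 82.6 ± 2.53 FPKM in Col-0-2. The ferritin genes FER3 and FER4 had log2 changes of 0.86 and 0.85, with 128 ± 0.81 FPKM and 26.8 ± 1.87 FPKM in Col-0-2. FER2 did not pass (0.31, adjusted p = 0.109), and PYE, a regulator of the iron-deficiency response, was called higher (0.29). The lec1-4 and Col-0-1 libraries did not overlap in FRO3, VIT1 or FER1, nor in BHLH100 and BHLH38, where the filter left no other outcome. Among all genes tested, 44.1% did not overlap. In FPKM, the Col-0-2 means lay nearer to those of lec1-4 in BHLH100, BHLH38, FRO3, VIT1 and FER3, and nearer to those of Col-0-1 in FER1 and FER4. On the log2(FPKM + 1) scale, VIT1 lay nearer to Col-0-1 and FER1 nearer to lec1-4.

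Of 8 regulators of growth phase and flowering tested, 3 were lower and 2 higher, and SPL10, SPL11 and SPL15 did not pass. FLC, a repressor of flowering, measured 13.2, 15.7 and 14.7 FPKM in lec1-4, against 38.5, 39.8 and 47.1 FPKM in Col-0-1 (log2 change -1.46 ± 0.09 SE, adjusted p = 1.53e-05), and 22.1 ± 2.5 FPKM in Col-0-2. SVP, another repressor, measured 13.3, 12.6 and 13.4 FPKM in lec1-4, against 2.88, 2.73 and 3.1 FPKM in Col-0-1 (log2 change 1.86 ± 0.08 SE, adjusted p = 3.22e-06), and 1.91 ± 0.258 FPKM in Col-0-2. The primary transcript genes of the juvenile phase microRNA, MIR156a and MIR156c, had log2 changes of -1.92 and -1.27, and SPL9, a target of it, of 0.54. MIR156a measured 10.8, 6.39 and 7.1 FPKM in lec1-4, against 31.2, 27 and 41.9 FPKM in Col-0-1, and 9.06 ± 4.52 FPKM in Col-0-2. MIR156c averaged 3.82 ± 1.41 FPKM in lec1-4 and 10.4 ± 1.61 FPKM in Col-0-1, and 5.02 ± 1.03 FPKM in Col-0-2. For both of them Col-0-2 was close to lec1-4.

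Of 7 genes tested for the glyoxylate cycle and wax, 5 were higher and none lower. Among the 5, GPAT4 averaged 23.65 FPKM in lec1-4 and 13.15 FPKM in Col-0-1 but 38.95 FPKM in Col-0-2. MLS, PCK1, FAR1 and GPAT8 averaged less in Col-0-2 than in lec1-4. MLS, malate synthase of the glyoxylate cycle, which seedlings use to live on oil, measured 21.6, 18.1 and 23.7 FPKM in lec1-4, against 5.33, 4.12 and 6.3 FPKM in Col-0-1 (log2 change 1.83 ± 0.14 SE, adjusted p = 5.24e-05), and 3.35 ± 1.03 FPKM in Col-0-2. Its partner ICL had a log2 change of 0.57 and did not pass (adjusted p = 0.112). The suberin and cutin genes FAR1 and GPAT8 had log2 changes of 1.81 and 2.13. In 1 of the 7, GPAT8, every Col-0-1 library was under 1 FPKM.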
